A study of Homo sapiens with 4 samples.

Results

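This account concerns 10 genes of fibroblast growth factor (FGF) signalling, chosen by symbol from a deposited table of 25369 genes. They are the receptor genes FGFR1, FGFR2, FGFR3 and FGFR4, the receptor-like gene FGFRL1, the ligand gene FGF2, the FGF carrier gene FGFBP1, and the Sprouty genes SPRY1, SPRY2 and SPRY4. All 10 symbols were found in the table. The RNA with poly(A) tails came from H226, a human cell line in long use that is labelled as lung squamous cell carcinoma. In the shp63 group, 2 cultures carried an inducible short hairpin RNA against p63, a transcription factor that maintains basal and squamous epithelium. In the shControl group, 2 cultures carried an inducible non-targeting hairpin. Both groups received doxycycline, the inducer, at 1 µg/mL for 6 days, and no culture without doxycycline was analysed here. The labels name 1 hairpin construct per group, so the hairpin and its target cannot be told apart.

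FGF ligands bind receptor tyrosine kinases together with heparan sulfate on the cell surface, and the activated receptors signal through the adaptor FRS2 to RAS and the kinase ERK. Sprouty proteins are induced by this signalling and restrain it, so they act as feedback inhibitors. In epithelial cells, FGFR1, FGFR2 and FGFR3 transcripts can be spliced to IIIb forms, while IIIc forms prevail in mesenchymal cells. The IIIb form of FGFR2 receives ligands of neighbouring mesenchyme such as FGF7 and FGF10. FGFR2 is a receptor of basal epithelial cells, and FGFR1 is often described in mesenchymal cells.

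The libraries held 51926832 to 53924761 counted reads, and levels are given as CPM, counts per 1e6 library reads scaled with TMM factors. TP63, the targeted gene, had 1596 and 1530 reads in shp63, against 7533 and 7364 reads in shControl. Its level was 30.6 ± 0.116 CPM in shp63 and 136 ± 0.798 CPM in shControl (SD, n = 2 each), a log2 fold change of -2.16 with SE 0.041. These counts do not separate the isoforms of TP63.

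Of the 10 members, 9 passed the filter on low counts and SPRY4 did not. Among the 9, 5 were called higher and 3 lower in shp63 by the quasi-likelihood test of edgeR (Benjamini-Hochberg adjusted p under 0.05 over 14901 genes), and FGFR4 was not called. With DESeq2, and without shControl replicate 1, 3 were called higher. Across all tested genes 74.0% were called (36.9% higher and 37.1% lower), so being called is common in this comparison and says little about a member. A test against a 1.5-fold change called FGFR1, FGFRL1 and SPRY2 as higher and FGFR2 as lower. These 4 compare with 22.7% of all tested genes. In level, shp63 and shControl libraries did not overlap for any of the 10 members, as for 86.4% of all tested genes. The median log2 fold change was 0.11 over the 9 members and -0.01 over all tested genes. In bulk RNA such as this, fewer cells with a transcript and less of it per cell cannot be told apart.

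**Figure D1:**
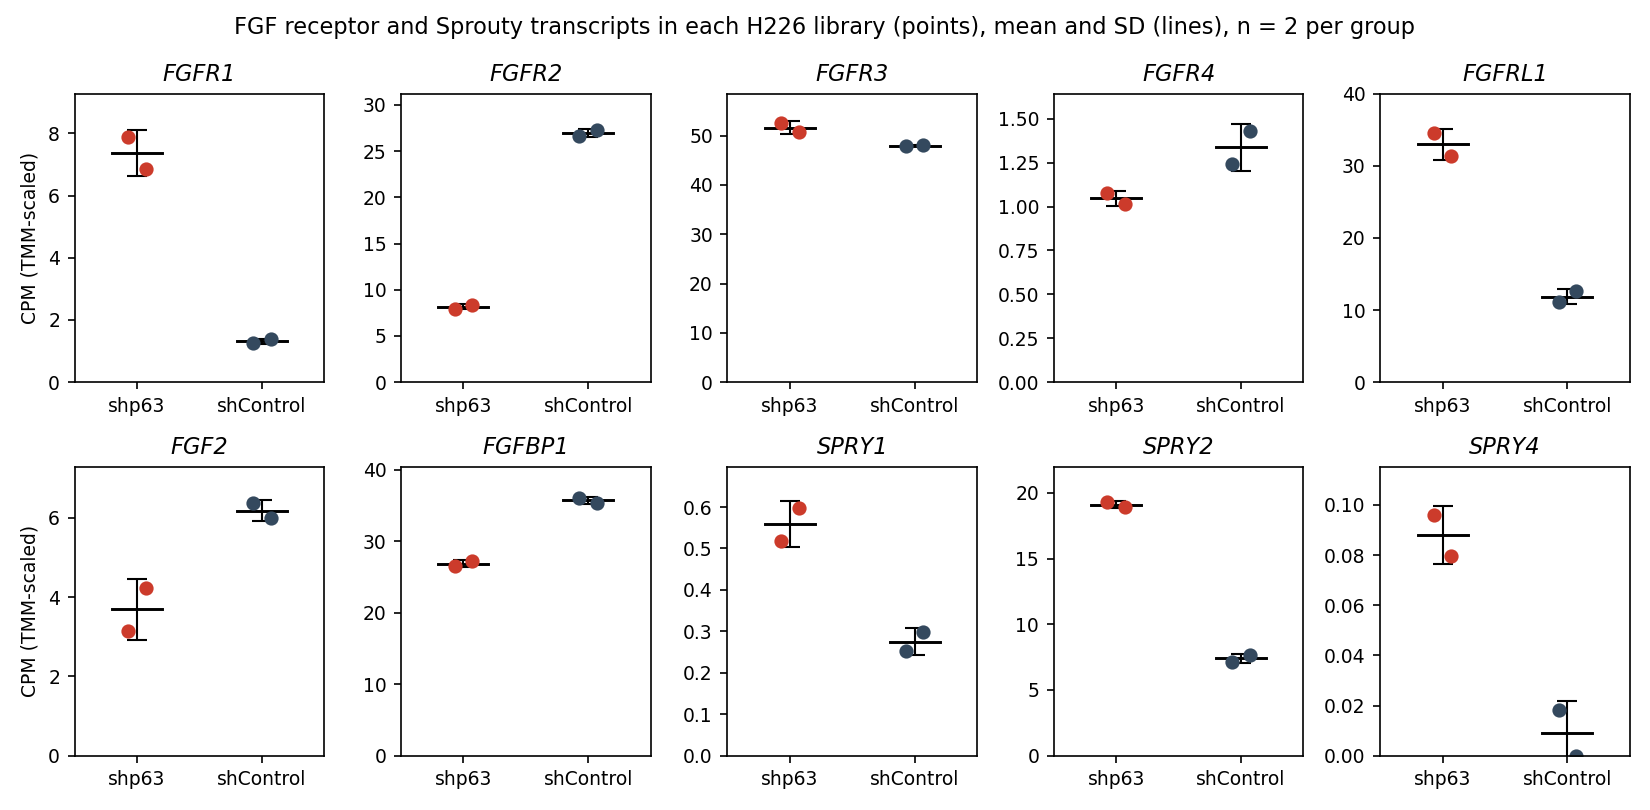
Level of each member in CPM (linear axes from 0, a separate scale per gene), with shp63 at the left and shControl at the right of each panel. Points are libraries and bars are the mean and SD (n = 2 each). FGFR1, FGFRL1 and SPRY2 lie higher in shp63 and FGFR2 lies lower, while FGFR3 lies near 50 CPM in all 4 libraries.

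The stretches before the transcription starts of FGFR2, SPRY2 and FGFBP1 are shown because these genes stand for a receptor that fell, a feedback inhibitor that rose and a carrier that fell less. Each is the 250 bases before a RefSeq start, placed on GRCh37 by an exact match, and ends where the GENCODE reference transcript starts. They are FGFR2 at chr10:123357959-123358208, SPRY2 at chr13:80915262-80915511 and FGFBP1 at chr4:15940364-15940613, all on the minus strand and written 5′ to 3′. Capitals mark GGGCGG in FGFR2, CCGGAA in SPRY2 and the p53 family decamer in FGFBP1, the short motif that p53, p63 and p73 bind in pairs.
FGFR2: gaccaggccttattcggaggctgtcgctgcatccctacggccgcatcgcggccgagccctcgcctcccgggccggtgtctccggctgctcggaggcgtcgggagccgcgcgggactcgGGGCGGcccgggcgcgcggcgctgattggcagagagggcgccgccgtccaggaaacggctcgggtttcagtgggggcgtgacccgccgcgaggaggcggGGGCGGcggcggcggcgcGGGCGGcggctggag
SPRY2: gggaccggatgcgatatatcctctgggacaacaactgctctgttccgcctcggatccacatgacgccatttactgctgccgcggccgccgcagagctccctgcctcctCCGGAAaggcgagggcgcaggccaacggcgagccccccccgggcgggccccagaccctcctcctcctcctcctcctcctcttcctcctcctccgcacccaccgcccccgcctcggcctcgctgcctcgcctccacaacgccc
FGFBP1: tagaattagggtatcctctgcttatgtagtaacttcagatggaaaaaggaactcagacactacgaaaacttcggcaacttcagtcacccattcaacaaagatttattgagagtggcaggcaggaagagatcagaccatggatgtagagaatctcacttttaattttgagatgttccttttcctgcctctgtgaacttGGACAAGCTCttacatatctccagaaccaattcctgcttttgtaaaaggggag
RefSeq gives FGFR2 4 further starts, whose stretches are 42.8% to 50% G and C with 3 to 7 CpG, and SPRY2 2 further starts, and which starts these cells use was not measured. The printed FGFR2 stretch is 78.4% G and C with 42 CpG dinucleotides and 3 GGGCGG matches, the letters of the GC box. The SPRY2 stretch is 70.4% G and C with 23 CpG, 1 CCGGAA match, the core letters bound by ETS factors, and 2 GGGCGG matches that are not capitalised. The FGFBP1 stretch differs in kind, with 40.8% G and C, 2 CpG and neither of those motifs. Its decamer, GGACAAGCTC, begins 53 bases before the start. No other stretch searched among the members, those of FGFR2, FGFRL1 and SPRY2 included, held the decamer, and FGFR1 was not searched. Over both strands of 35116 such windows of all genes, the decamer occurred in 5.57%, GGGCGG in 42.6% and CCGGAA in 14.5%. None of these matches overlaps another. They describe letters only, and the deposited data hold no measure of binding.

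The receptors moved apart. FGFR1 rose, FGFR2 fell, FGFR3 rose 1.08-fold and FGFR4 was low in every library. FGFR1 (ENSG00000077782, chromosome 8) encodes the receptor often described in mesenchymal cells. It had 410 and 343 reads in shp63, against 70 and 74 reads in shControl. The groups were far apart, and the shp63 libraries differed from each other more than the shControl libraries did. The mean was 7.36 ± 0.736 CPM in shp63 and 1.32 ± 0.0807 CPM in shControl (SD, n = 2 each), 5.58-fold higher (log2 fold change 2.48, SE 0.13, adjusted p = 8.63e-14). This change was larger in size than that of 97.9% of tested genes. LETM2, on the opposite strand, shares up to 138 bases of exon with FGFR1, and had 79 and 83 reads in shp63 and 108 and 106 reads in shControl.

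FGFR2 (ENSG00000066468, chromosome 10 from 123237846 to 123357972, minus strand) encodes the basal epithelial receptor for FGF7 and FGF10 in its IIIb form. The stretch printed above lies before 1 of its 5 RefSeq starts. It had 414 and 419 reads in shp63, against 1479 and 1467 reads in shControl, so replicates nearly coincided and the groups stood well apart. The level was 8.16 ± 0.282 CPM in shp63 and 27.0 ± 0.435 CPM in shControl (SD, n = 2 each), 3.31-fold lower (log2 fold change -1.73, SE 0.061, adjusted p = 9.58e-17). The counts are of the whole gene and do not tell the IIIb and IIIc forms apart.

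FGFR3 (ENSG00000068078, chromosome 4 from 1795020 to 1810599, plus strand) encodes a receptor of epithelia and of cartilage. It had 2734 and 2541 reads in shp63, against 2652 and 2580 reads in shControl. On the read scale the groups overlap, and on the CPM scale, at 52.6 and 50.7 in shp63 and 47.8 and 48.0 in shControl, they do not. The log2 fold change was 0.11 with SE 0.041 and adjusted p = 0.0227, and the call is lost with DESeq2 (adjusted p = 0.0743) and without a composition factor (adjusted p = 0.67). It is also lost without shp63 replicate 1 (adjusted p = 0.103) or shControl replicate 1 (adjusted p = 0.129). FGFR4 (ENSG00000160867, chromosome 5) encodes a receptor best known from liver, where it receives FGF19. It had 56 and 51 reads in shp63, against 69 and 77 reads in shControl, with a log2 fold change of -0.35, SE 0.19 and adjusted p = 0.102. The groups do not overlap but the difference was under the threshold, which library totals alone would have passed (adjusted p = 0.0442).

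FGFRL1 (ENSG00000127418, chromosome 4 from 1003724 to 1020686, plus strand) encodes a receptor relative that binds FGF ligands but has no tyrosine kinase domain. It had 1796 and 1575 reads in shp63, against 618 and 677 reads in shControl. Both shp63 libraries lay well above both shControl libraries. The mean was 33.0 ± 2.20 CPM in shp63 and 11.9 ± 1.02 CPM in shControl (SD, n = 2 each), 2.78-fold higher (log2 fold change 1.48, SE 0.063, adjusted p = 1.05e-14). Among the 9 tested members only FGFR1 rose more.

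To set the receptors beside each other, each CPM was divided by the length of the gene's GENCODE reference transcript, which gives CPM per kilobase. FGFR3 had the highest level per length of the 4 kinase receptors in every library, at 12.2 and 11.8 CPM per kb in shp63 and 11.1 and 11.2 in shControl. FGFR2 had 1.72 and 1.81 CPM per kb in shp63, against 5.77 and 5.90 in shControl. FGFR1 had 1.38 and 1.20 CPM per kb in shp63, against 0.222 and 0.242 in shControl. FGFR2 therefore lay second in shControl, and in shp63 FGFR1 came close to it.

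As a share of the 4 receptors per length, FGFR2 made up 11% and 12.0% in shp63, against 32.9% and 33.2% in shControl. FGFR1 made up 8.83% and 7.94% in shp63, against 1.27% and 1.36% in shControl. FGFR3 made up 78.0% and 77.9% in shp63, against 63.5% and 62.8% in shControl, so its share grew while its own level differed little. With all annotated exons as the length, FGFR3 made up 90.7% and 90.8% in shp63, against 84.9% and 84.4% in shControl. The shares thus depend on the length chosen, as does the order of FGFR2 and FGFR1 in shp63, where their ratio was 1.24 and 1.51 by reference transcript and 0.923 and 1.12 by all exons. In shControl FGFR2 exceeded FGFR1 by either length, with ratios of 26.0 and 24.4 by reference transcript.

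**Figure D2:**
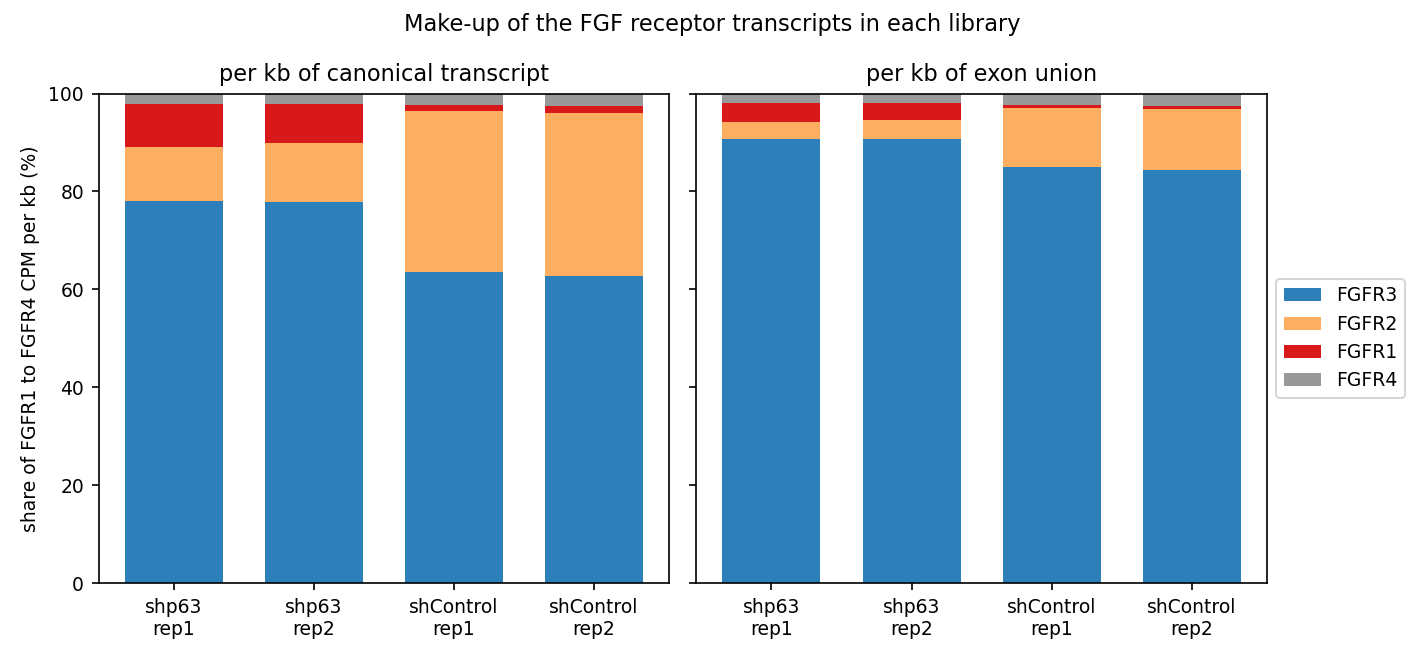
Share of FGFR1 to FGFR4 in the sum of their CPM per kb (percent, bars from 0 to 100) in each library, with shp63 left of shControl, by reference transcript length (left) and by all annotated exons (right). FGFR3 is the widest band throughout, FGFR2 is narrower in shp63 (11% and 12.0%) than in shControl (32.9% and 33.2%) by transcript length, and FGFR1 is wider.

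On the ligand side both members fell, FGF2 more than its carrier FGFBP1. FGF2 (ENSG00000138685, chromosome 4 from 123747837 to 123819391, plus strand) encodes basic FGF, which leaves cells without a signal peptide and binds heparan sulfate. It had 164 and 212 reads in shp63, against 353 and 322 reads in shControl. The shp63 libraries differed from each other more than the shControl libraries did, and the groups did not overlap. The mean was 3.69 ± 0.761 CPM in shp63 and 6.18 ± 0.266 CPM in shControl (SD, n = 2 each), 1.68-fold lower (log2 fold change -0.75, SE 0.12, adjusted p = 6.41e-06). The test against a 1.5-fold change did not call FGF2. Its log2 fold change was -0.55 without shp63 replicate 1 and -0.97 without shp63 replicate 2. NUDT6, a gene on the opposite strand, shares up to 651 bases of exon with FGF2. It had 484 and 471 reads in shp63 and 537 and 509 reads in shControl (log2 fold change -0.04, adjusted p = 0.675). The strand setting of the counting is not given in the sources used here, and whether reads of one were counted for the other was not tested.

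FGFBP1 (ENSG00000137440, chromosome 4 from 15937200 to 15940363, minus strand) encodes a secreted carrier that releases FGF2 from the matrix, and its start is the stretch with the decamer printed above. It had 1381 and 1366 reads in shp63, against 2001 and 1901 reads in shControl. The level was 26.9 ± 0.493 CPM in shp63 and 35.7 ± 0.513 CPM in shControl (SD, n = 2 each), 1.33-fold lower (log2 fold change -0.41, SE 0.044, adjusted p = 2.05e-08). Replicates were close and the groups well apart, yet 54.6% of tested genes changed by less and the test against a 1.5-fold change did not call it. Per length FGFBP1 was the most abundant member in all 4 libraries, at 19.6 and 20.2 CPM per kb in shp63 and 26.7 and 26.2 in shControl.

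The Sprouty genes lay higher in shp63, each from a different level. SPRY2 (ENSG00000136158, chromosome 13 from 80910111 to 80915261, minus strand) encodes an inhibitor of RAS-ERK signalling by receptor tyrosine kinases. It had 1003 and 948 reads in shp63, against 397 and 412 reads in shControl, with replicates close and groups apart. The mean was 19.1 ± 0.264 CPM in shp63 and 7.41 ± 0.357 CPM in shControl (SD, n = 2 each), 2.58-fold higher (log2 fold change 1.37, SE 0.067, adjusted p = 3.41e-14).

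SPRY1 (ENSG00000164056, chromosome 4), a related inhibitor, was near the lower limit of the test. It had 27 and 30 reads in shp63, against 14 and 16 reads in shControl. The log2 fold change was 1.02 with SE 0.32 and adjusted p = 0.00639. That call is lost with DESeq2 (adjusted p = 0.0967), without shp63 replicate 2 (adjusted p = 0.0558) and without shControl replicate 1 (adjusted p = 0.0508).

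SPRY4 (ENSG00000187678, chromosome 5) was nearly silent, with 5 and 4 reads in shp63 and 1 and 0 reads in shControl. The ratio of summed reads, scaled to library totals, was 9.05 with a 95% exact counting interval of 1.25 to 397, which covers counting error only. Per length, SPRY2 had 8.43 and 8.27 CPM per kb in shp63, against 3.13 and 3.35 in shControl, and SPRY1 had 0.199 and 0.230 in shp63, against 0.0970 and 0.114 in shControl. SPRY2 thus carried nearly all Sprouty reads among the 3 members in both groups.

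**Figure D3:**
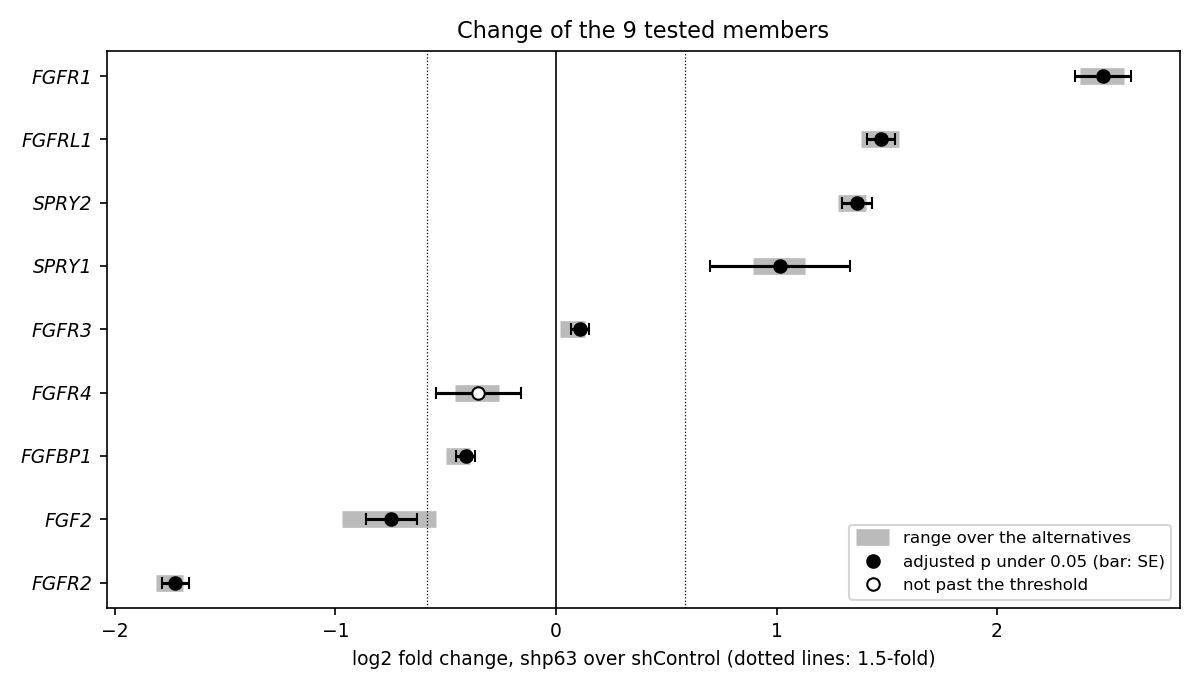
Log2 fold change of shp63 over shControl for the 9 tested members (points, with SE) and its range over 12 alternative settings (grey). Filled points passed an adjusted p under 0.05. FGFR1 (2.48), FGFRL1 (1.48) and SPRY2 (1.37) lie beyond 1.5-fold upward and FGFR2 (-1.73) downward under every setting. SPRY1 (1.02) does so under every setting that tested it, and FGF2 (-0.75) under some. In the main fit the test against 1.5-fold called neither SPRY1 nor FGF2. FGFR3 (0.11) lies closest to 0 and FGFR4 (-0.35) was not past the threshold.

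Ordered by level per reference transcript length in shControl, the members ran FGFBP1, FGFR3, FGFR2, FGFRL1, SPRY2, FGF2, FGFR4, FGFR1, SPRY1 and SPRY4. FGFRL1 (3.27 and 3.69 CPM per kb) and SPRY2 (3.13 and 3.35) overlapped there, and the other neighbours did not. In shp63 FGFRL1 (10.1 and 9.21 CPM per kb) and SPRY2 stood above FGFR2, behind FGFBP1 and FGFR3. With all annotated exons as the length, FGFRL1 and SPRY2 stood above FGFR2 in shControl too, so their order against FGFR2 there depends on the length. FGFR1, the tested member with the largest fitted change, was also compared with other genes by log2 CPM centred on each gene's shControl mean. Nearness by this measure is of change and not of level. The closest over the 4 libraries were BCAS1 (57.4 CPM in shp63 and 10.6 in shControl), SPOCK1 (37.8 and 6.77 CPM) and ECM1 (102 and 17.9 CPM), at distances of 0.118 to 0.141. Their log2 fold changes were 2.44, 2.48 and 2.50, beside 2.48 for FGFR1. This likeness follows from picking the genes by nearness of change, and a link to FGFR1 was not tested.

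Other genes of the pathway were read from lists written from general knowledge. For comparison, 36.9% of all tested genes were called higher and 37.1% lower. Of 22 genes listed as FGF ligands, intracellular relatives such as FGF12 among them, only 5 passed the filter. The 17 others had at most 9 reads in any library, with 6 at 0 in all 4. FGF1, encoding acidic FGF, fell to 9 and 5 reads in shp63, against 134 and 106 reads in shControl (15.8-fold lower, log2 fold change -3.98, SE 0.29, adjusted p = 3.09e-11). With FGF2 it makes up the 2 ligands called lower. FGF12, an intracellular relative, rose from a low level, with 45 and 37 reads in shp63 and 30 and 25 reads in shControl (adjusted p = 0.022), and FGF5 and FGF11 were not past the threshold. FGF12 was the 1 gene of this list called higher, and that count was 0 with DESeq2. FGF7, a ligand of FGFR2 IIIb, had 7 and 8 reads in shp63 and 6 and 9 reads in shControl. FGF10 and FGF22 had no reads, and 0 reads allow up to 0.0541 to 0.0598 CPM per library.

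Among 10 co-receptor, FLRT and carrier genes 5 were tested, with 1 higher and 3 lower, FGFBP1 among them (median log2 fold change -0.30). Of all tested genes 74.0% were called. FLRT2, a membrane protein that binds FGF receptors, had 1.24 CPM in shp63 and 3.74 CPM in shControl (log2 fold change -1.59, SE 0.14), and FLRT3 had 1.53 CPM in shp63 and 0.963 CPM in shControl (0.67, SE 0.20). FLRT3 was the 1 gene called higher, and that count was 0 with DESeq2 and without shp63 replicate 2. The adhesion gene L1CAM had 42.8 CPM in shp63 and 52.5 CPM in shControl. Klotho co-receptors of the endocrine FGFs were at or near 0, with at most 1 read per library for KL and KLB.

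Heparan sulfate genes, whose products hold FGFs at the receptor, moved both ways. Of 33 listed, 27 were tested, 14 were higher and 9 lower (median 0.13), where 74.0% of all tested genes were called. Beyond 1.5-fold 7 were called higher and 1 lower. Over all 14901 tested genes these numbers were 1894 and 1491, or 22.7% together. Of the genes named in this paragraph only AGRN and EXT2 were called beyond 1.5-fold. The proteoglycan genes AGRN and SDC1 rose, with AGRN at 691 CPM in shp63 and 392 CPM in shControl and SDC1 at 597 and 466 CPM. EXT2, which builds the chain, was at 247 CPM in shp63 and 155 CPM in shControl. The glypican gene GPC1 and the sulfation enzyme genes NDST1 and HS6ST1 fell, with GPC1 at 205 CPM in shp63 and 292 CPM in shControl, NDST1 at 180 and 257 CPM, and HS6ST1 at 69.8 and 108 CPM.

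Of the adaptors and kinases between receptor and ERK all 29 were tested. In shp63 8 were higher and 11 lower, with a median log2 fold change of 0.03, where 74.0% of all tested genes were called. Beyond 1.5-fold 3 were called, against 22.7% of all tested genes. These were RPS6KA2, an ERK-activated kinase gene at 78.4 CPM in shp63 and 22.5 CPM in shControl (1.80, SE 0.043), the adaptor gene GAB2 at 35.8 and 21.8 CPM, and HRAS at 36.2 and 72.2 CPM. SOS2, a RAS activator, also rose (0.45), and PTPN11, which encodes the phosphatase SHP2, fell (-0.28). FRS2, the adaptor of FGF receptors, had 45.5 CPM in shp63 and 48.8 CPM in shControl (-0.10, adjusted p = 0.0333).

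Beside the Sprouty genes, 15 of 16 other feedback inhibitors of RAS-ERK were tested, with 6 higher and 7 lower (median -0.10). The share called over all tested genes was 74.0%. DUSP4, a nuclear ERK phosphatase, had 288 CPM in shp63 and 49.3 CPM in shControl (2.55, SE 0.031), and DUSP5 and RASA2 rose by 0.71 and 0.64 on the log2 scale. DUSP9, DUSP7 and RASAL2 fell, with DUSP9 at 5.02 CPM in shp63 and 11.6 CPM in shControl. SPRY3 had 7 and 3 reads in shp63 and 2 and 2 reads in shControl and was not tested. The Sprouty relatives SPRED1 and SPRED2 had 6.23 and 10.2 CPM in shp63 and 7.12 and 10.9 CPM in shControl, and SPRED3 was at 1.28 CPM in shp63 and 0.504 CPM in shControl. IL17RD, an inhibitor that acts at the FGF receptor, had 1.95 CPM in shp63 and 3.46 CPM in shControl (-0.83, adjusted p = 8.62e-06).

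Transcripts known to be induced by ERK also divided, with 8 of 16 tested genes higher and 6 lower (median 0.25). All tested genes divided too, with 36.9% called higher and 37.1% lower. DUSP4, IER3 and FOS rose, IER3 to 189 CPM in shp63, against 38.6 CPM in shControl, and FOS to 43.7 CPM, against 21.4 CPM. MYC, EPHA4 and FOSL1 fell, with MYC at 27.3 CPM in shp63 and 114 CPM in shControl, EPHA4 at 25.9 and 57.5 CPM and FOSL1 at 2.13 and 6.37 CPM. DUSP6, a phosphatase gene often used to read FGF signalling, was low, with 29 and 37 reads in shp63 and 17 and 20 reads in shControl (0.93, SE 0.30, adjusted p = 0.00813). The lists of feedback inhibitors and of induced transcripts share SPRED1, SPRED2, DUSP4, DUSP5 and DUSP6. No FGF was added or blocked in these cultures per the labels, and ERK activity is not measured by these counts.

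Of 11 genes for proteins known to regulate the choice between IIIb and IIIc exons, 2 were higher and 9 lower (median -0.32). Across all tested genes 74.0% were called, 36.9% higher and 37.1% lower. ESRP1 and ESRP2, the epithelial regulators that favour IIIb exons, were both abundant. ESRP1 had 234 CPM in shp63 and 329 CPM in shControl (-0.49, SE 0.032), and ESRP2 had 6198 and 5483 reads in shp63 and 5377 and 5539 reads in shControl (0.19, SE 0.042). HNRNPA1 and SRSF1 fell, with HNRNPA1 at 126 CPM in shp63 and 251 CPM in shControl, and TIA1 rose, at 114 and 88.2 CPM. Only HNRNPA1 changed beyond 1.5-fold, and splice forms were not measured.

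**Figure D4:**
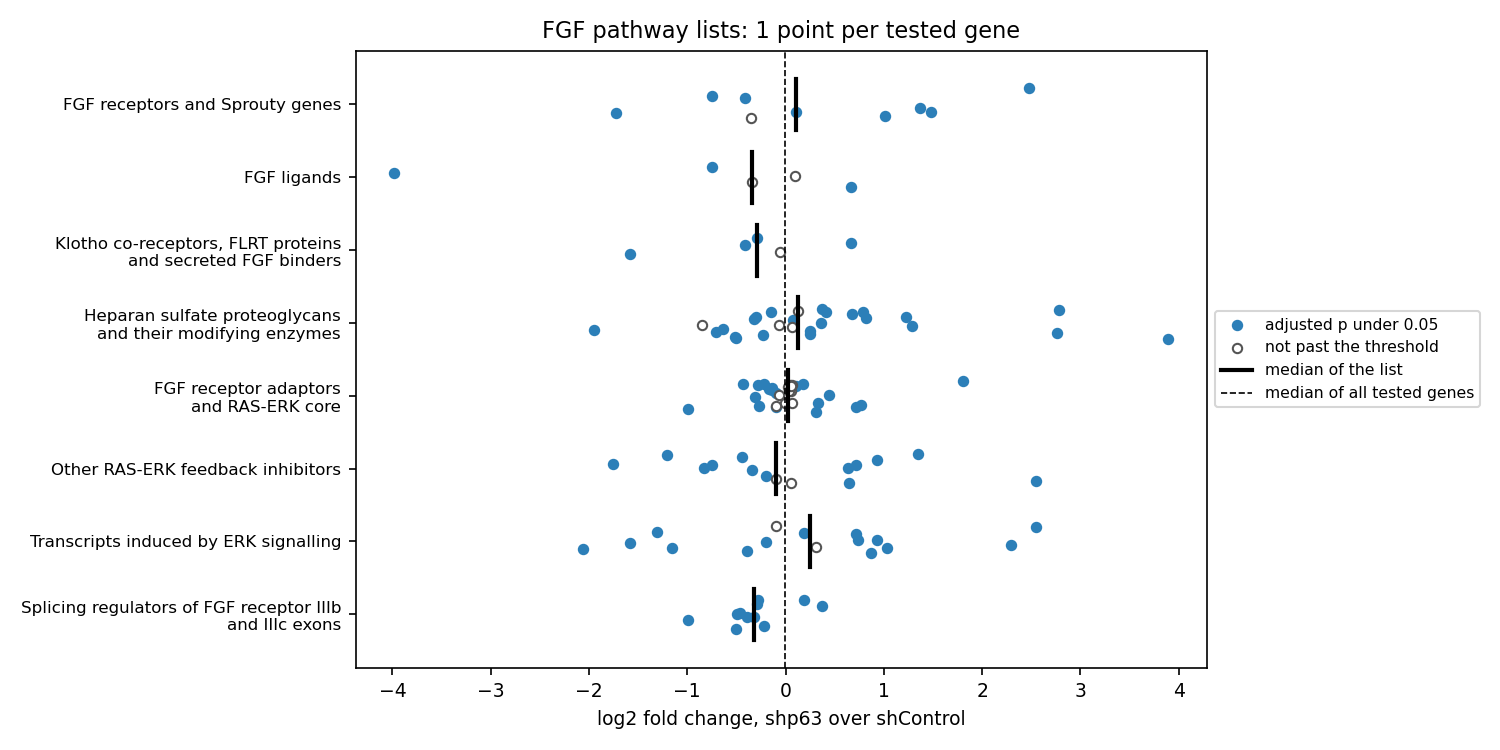
Log2 fold change of shp63 over shControl for every tested gene of the members and of 7 pathway lists (1 point per gene, filled where adjusted p was under 0.05), with each list's median (black tick) and the median of all tested genes (dashed, -0.01). Each list spans both sides of 0. The medians run from -0.34 for the FGF ligand list, which includes intracellular relatives, to 0.25 for transcripts induced by ERK.

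Markers of the labelled and of other cell types were read in the same libraries, where 36.9% of all tested genes were called higher and 37.1% lower. Of 10 squamous and basal markers 7 were lower and 3 higher in shp63, with TP63, the hairpin's own target, among the 7. Their median log2 fold change was -1.87, and 6, TP63 included, were lower beyond 1.5-fold. Their summed level was 4091 to 4300 CPM in shp63 and 5453 to 5552 CPM in shControl, most of it KRT17 (3062 CPM in shp63 and 3898 CPM in shControl). KRT5 (148 CPM in shp63 and 757 CPM in shControl) and DSG3 (29.5 and 130 CPM) were present, while SOX2 had 1 and 3 reads in shp63 and 14 and 11 reads in shControl. The 3 that rose were EPCAM (384 CPM in shp63 and 213 CPM in shControl), CDH1 (521 and 345 CPM) and KRT6A (18.5 and 14.0 CPM). Of these only EPCAM was called beyond 1.5-fold. Fibroblast markers, relevant to FGFR1, summed to 86.0 to 93.8 CPM in shp63 and 113 to 118 CPM in shControl, nearly all COL1A1 and FAP, with 1 of 4 tested higher and 2 lower. The defining fibroblast genes were at or near 0, with DCN at 0, LUM at 1 read or fewer and PDGFRA at 2 reads or fewer per library.

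Mesothelial markers summed to 2831 to 2903 CPM in shp63 and 1857 to 1890 CPM in shControl, with all 4 tested of 8 higher. Most of that sum was KRT7 (1862 CPM in shp63 and 1216 CPM in shControl), a keratin of simple epithelia in general. The other 3 tested were MSLN (330 CPM in shp63 and 132 CPM in shControl), UPK3B (303 and 215 CPM) and KRT19 (372 and 310 CPM). Only MSLN was called beyond 1.5-fold. ITLN1 and PDPN were at 0, and WT1 had 0 reads in shp63 and 3 and 4 reads in shControl. Leukocyte markers summed to 81.6 to 85.3 CPM in shp63 and 14.8 to 16.3 CPM in shControl, most of it CD14 and CD68. Of 5 tested, 4 were higher, and ITGAM was lower at 15 and 13 reads in shp63, against 41 and 35 reads in shControl. MS4A1 was at 0, and PTPRC had 8 and 6 reads in shp63 and 6 and 4 reads in shControl. Endothelial markers summed to 190 to 192 CPM in shp63 and 59.9 to 65.0 CPM in shControl, almost all CDH5. Of 3 tested, 2 were higher, and VWF was lower at 1.30 CPM in shp63 and 4.66 CPM in shControl. CLDN5 was at 0. The part of these transcripts in the members' differences was not tested.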

How the data were processed

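Poly(A) RNA libraries of H226 cells were made with a stranded kit, per the labels' protocols. The authors deposited raw counts of reads for each gene symbol, as whole numbers with no scaling, made with TopHat2 2.0.13 on GRCh37 and HTSeq 0.6.1, per the submitters' processing notes and the design text. The annotation and strand setting are not given in the sources used here. Each column was matched to a library by its name.

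Counts were tested with edgeR 4.0.16 (R 4.3.3): filterByExpr (minimum count 10, minimum total 15) kept 14901 of 25369 genes, TMM factors were 0.966 to 1.03, and a robust quasi-likelihood model with group as its term was fitted to all 4 libraries. P-values were Benjamini-Hochberg adjusted over all tested genes, and glmTreat tested against 1.5-fold. SEs are the log2 fold change over the root of F. An exact permutation test of 2 against 2 cannot give a p under 0.333, so calls rest on the spread shared across genes. The submitters call the replicates independent, and the pairs differed by more than sampling noise (chi-square per degree of freedom 3.74 for shp63 and 3.43 for shControl).

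Lengths and positions are from GENCODE v44 on GRCh37 and promoter windows from RefSeq (GRCh38.p14), found again on GRCh37. The scripts were tested on simulated counts. Alternatives were other scalings and filters, DESeq2 1.42.0, limma-voom (limma 3.58.1), replicate blocks and each library left out. The members and lists were chosen with earlier results of these data known. The text names all members, TP63, up to 3 genes per direction in each list by adjusted p (at least 1 CPM on average) and the 3 genes of at least 5 CPM nearest to the member that changed most. Some genes under this rule are not reported here. Genes named beside a low or unpassed value, overlapping genes and single markers were chosen after their values were seen.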

Additional observations from a re-analysis of the deposited data

How the results depend on the processing

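Over 12 alternatives no log2 fold change of a tested member reversed, and 99 of 107 such values kept their side of the threshold. Of 236 counts of called genes, 228 stayed within 1.5 times the reported count. FGFR1, FGFR2, FGFRL1, FGF2, FGFBP1 and SPRY2 were called under all 12. FGFR3 was 0.020 (adjusted p = 0.67) with library totals and 0.11 (adjusted p = 0.0743) with DESeq2, where SPRY1 was 1.03 (adjusted p = 0.0967). FGFR4 was -0.44 with library totals (adjusted p = 0.0442). SPRY4 was 2.97 (adjusted p = 0.0508) with no filter. Members called higher numbered 3 with DESeq2. The ligand list had 0 called higher with DESeq2 and with a 1 CPM filter, and the co-receptor list had 0 with DESeq2. The 1 CPM filter left FGF12 untested, at 0.865 and 0.738 CPM in shp63 and 0.541 and 0.465 CPM in shControl. The cause of the other differences was not tested. Leaving out 1 library at a time gave FGFR3 at 0.082 to 0.132, SPRY1 at 0.90 to 1.13 and FGF2 at -0.97 to -0.55. A lone library is assumed there to vary like the others. Without shControl replicate 1, 3 members were called higher.

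The replicate numbers are not stated to pair the cultures. With the replicate number as a block, 10858 genes were called in place of 11033, and members called stayed at 5 higher and 3 lower. The differences between replicates correlated across genes at -0.112 between the groups, and the crossed block, chosen after seeing the data, called 11387 genes. SPRY1, SPRY4 and FGFR4 had among the lowest counts of the members, and depth was not varied.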
